A study of Saccharomyces cerevisiae with 12 samples.

Results

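The cohesin genes are 9 genes of *S. cerevisiae* that encode the cohesin ring, its loader and its regulators, taken by their systematic identifiers from the 7079 named loci that the deposited tables list. They are the ring subunits SMC1 (YFL008W), SMC3 (YJL074C), MCD1 (YDL003W) and IRR1 (YIL026C), the loader subunits SCC2 (YDR180W) and SCC4 (YER147C), and the regulators PDS5 (YMR076C), ECO1 (YFR027W) and RAD61 (YDR014W). RNA-seq libraries came from 12 cultures: 3 controls in YPD, and 3 for each of tetracycline (Tet), doxycycline (Dox) and 4-epidoxycycline (4-ED), all added at 1.5 μg/ml. The comparison of each treatment with the controls asks which genes respond to a drug that is used to switch Tet promoters. The sample labels name strain BY4741, whereas the study's methods name its derivative R1158, a MATa strain with auxotrophic alleles of *his3*, *leu2* and *met15* and with the tetracycline-controlled transactivator tTA, driven by a CMV promoter, at URA3. All 4 groups share that background, so the controls carry tTA too. Since tTA is controlled by tetracyclines, a change in its activity cannot be told apart from other effects of a drug. Growth was slower in the drug-treated groups, so their cultures were collected after more time, as the methods state.

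Cohesin is a protein ring that holds sister chromatids together from S phase until anaphase. Smc1 and Smc3 form the arms of the ring, the kleisin Mcd1 closes it, and Irr1 binds Mcd1. The Scc2-Scc4 complex loads the ring onto DNA, the acetyltransferase Eco1 makes cohesion lasting by acetylating Smc3 during replication, Pds5 maintains it, and Rad61, the yeast counterpart of Wapl, opens the ring. In *S. cerevisiae* many genes for DNA synthesis and cohesion are transcribed in late G1 by MBF, a complex of Mbp1 and Swi6 that binds the MluI cell cycle box (MCB), whose letters are ACGCGT.

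The tables hold 1 expression value per gene and group, as FPKM, a fragment count scaled for transcript length and library size, which Cuffdiff made from the 3 libraries of each group. Values of single cultures were not analysed here, so no replicate error, interval or test is given for any value, and each ratio is a description of the pooled groups. The test columns that Cuffdiff wrote into the same tables were not used. Counts were not used here, and the depth behind each value was not estimated. As a check of the strain, URA3 had 231 FPKM in the controls, while LEU2 and MET17, the gene altered in *met15* strains, were listed at 0 in every group. HIS3 was detected, at 63.5 FPKM in the controls of the Tet table, although the methods give a *his3* allele, and these values do not show which allele was transcribed. All 5 MATa genes on the list were detected in the controls, at 31.5 to 4638 FPKM. The 4 MATalpha genes had 4.7 to 33.5 FPKM and the 5 meiosis genes 6.89 to 21.2 FPKM, and no gene of these 3 lists was at 0. Their median log2 ratios with Tet, Dox and 4-ED were -0.09, -0.28 and -0.38 for MATa genes, 0.19, 0.09 and 0.05 for MATalpha genes and 0.23, 0.11 and 0.13 for meiosis genes. Of these lists, MF(ALPHA)1, a MATalpha pheromone gene, was at least 1.5-fold higher with Tet, and MFA2, a MATa pheromone gene, at least 1.5-fold lower with Dox. The same controls entered all 3 tables, and the control values of the 9 genes in the Dox table were 1.016 times those in the Tet table and 1.022 to 1.026 times those in the 4-ED table, against medians of 1.016 and 1.023 over 6545 genes.

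The stretches of DNA before the 9 genes are shown because members with and without the MCB motif had ratios in different ranges, which overlapped with Dox. They were read from the RefSeq sequence of the R64 genome, on the strand of the gene and in the 5′ to 3′ direction, within the 300 bases before the start codon or just beyond. Capitals mark ACGCGT, which reads the same on both strands.

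SMC1, chrVI:119277-119342, plus strand: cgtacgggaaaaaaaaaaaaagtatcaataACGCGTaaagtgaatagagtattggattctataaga
SMC3, chrX:302931-302996, minus strand: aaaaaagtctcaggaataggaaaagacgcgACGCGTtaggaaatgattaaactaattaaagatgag
MCD1, chrIV:444361-444426, plus strand: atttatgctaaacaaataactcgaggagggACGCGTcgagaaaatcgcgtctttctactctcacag
IRR1, chrIX:308022-308094, minus strand: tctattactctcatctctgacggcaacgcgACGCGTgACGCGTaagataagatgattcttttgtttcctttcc
PDS5, chrXIII:420162-420227, minus strand: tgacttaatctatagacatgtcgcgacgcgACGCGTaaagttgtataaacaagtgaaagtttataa
ECO1, chrVI:207288-207353, plus strand: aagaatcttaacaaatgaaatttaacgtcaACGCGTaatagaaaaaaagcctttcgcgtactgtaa

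For the other 3 genes, in which the full motif was not found, capitals mark the only match to the 5-base core ACGCG, read on either strand.

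SCC2, chrIV:821021-821085, plus strand: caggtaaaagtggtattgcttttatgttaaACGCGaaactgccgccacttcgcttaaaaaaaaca
SCC4, chrV:464968-465032, minus strand: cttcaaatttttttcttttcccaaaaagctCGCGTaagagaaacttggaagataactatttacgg
RAD61, chrIV:473901-473965, plus strand: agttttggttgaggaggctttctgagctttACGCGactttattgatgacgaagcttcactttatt

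Before SMC3, IRR1 and PDS5 the full motif follows directly on a copy of the core, and before IRR1 2 full motifs are separated by a single base. The motif began 122 bases before the start codon of SMC1, 117 before SMC3, 292 before MCD1, 135 and 128 before IRR1, 168 before PDS5 and 134 before ECO1. None of these matches overlapped another listed locus. In all, 6 of the 9 genes held ACGCGT in the 300 bases, while 3.52% of 5939 nuclear protein-coding genes did. The core ACGCG, which is part of the full motif, was found before all 9 genes and before 15.6% of the 5939. A match is a run of letters and not a measured binding site.

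**Figure D1:**
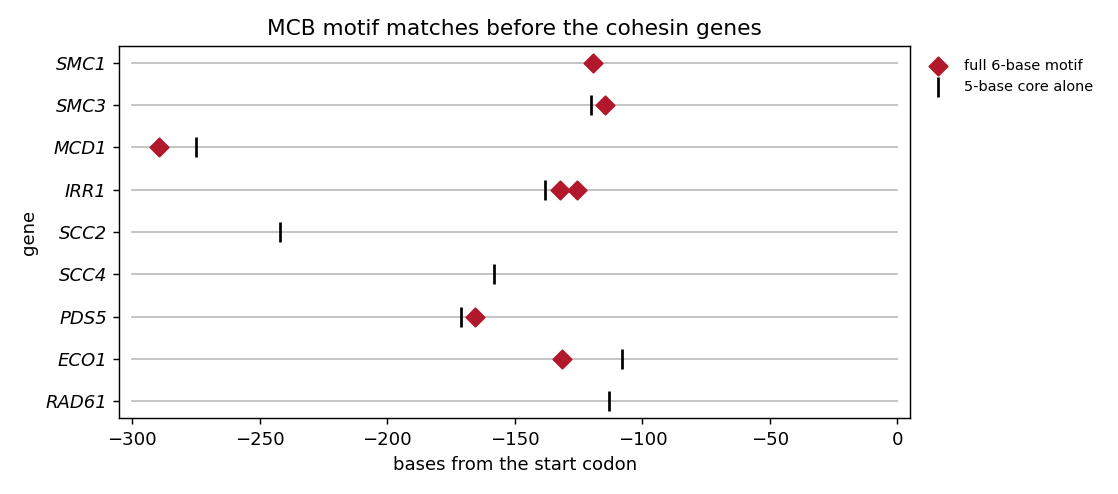
Positions of the MCB motif in the 300 bases before the start codon (x axis, bases) of the 9 cohesin genes (y axis). Diamonds are the full motif and bars the 5-base core alone, and the full motif lies between 117 and 292 bases before the start codon in 6 genes and is not found in SCC2, SCC4 and RAD61.

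In control cultures the 9 genes were expressed at low to moderate levels. FPKM is scaled for length, so levels of different genes are set side by side here. Other differences in read coverage between genes were not examined. In the controls of the Tet table, SCC2 was lowest with 3.505 FPKM, followed by SMC3, PDS5, MCD1, IRR1, ECO1, SMC1 and RAD61, and SCC4 was highest with 41.09 FPKM, 11.7 times the level of SCC2. The same controls entered all 3 tables, so that the order was the same in each is not a repeat of the observation. Which neighbours in it differ beyond the spread between cultures is unknown. The median of the 9 control levels was 9.995 FPKM, against 54.27 FPKM over all genes kept. The ring subunits are present in equal numbers in the complex, and their control levels spanned 2.1-fold, from SMC3 to SMC1. The loader subunits Scc2 and Scc4 form a complex, and their control levels were 11.7-fold apart. Each of the 9 genes has a single coding exon, none overlapped another listed locus, and blastn found no second match for any of them in the genome.

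**Figure D2:**
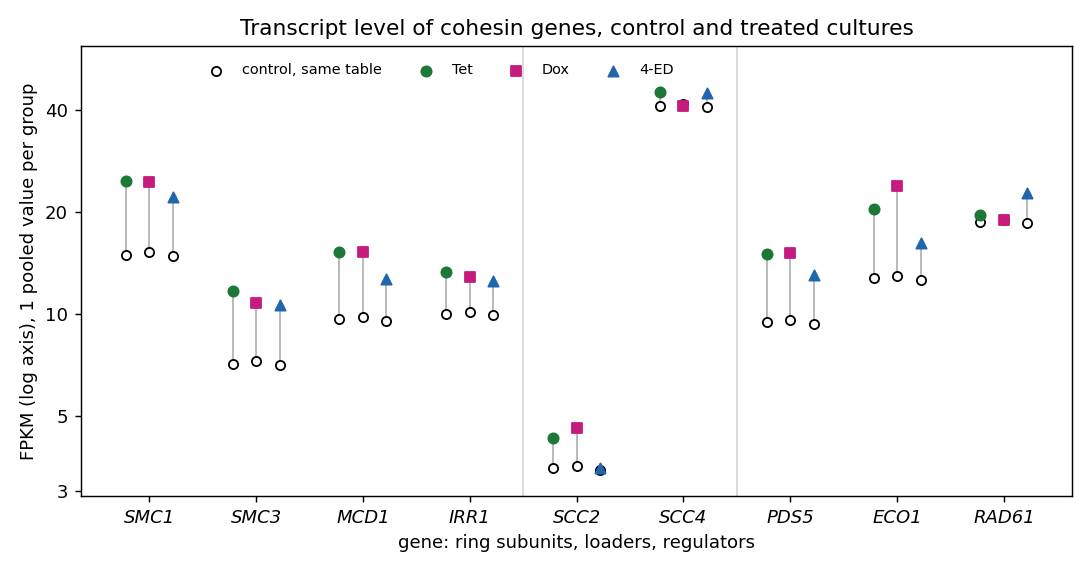
FPKM on a log axis (y) of the 9 cohesin genes (x), with open circles for the control value of each table and filled symbols for Tet, Dox and 4-ED, each a single value pooled over 3 cultures. SMC1, SMC3, MCD1, IRR1, PDS5 and ECO1 lie above their controls with all 3 drugs, and SCC4 stays near 41 to 45 FPKM.

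With Tet, 5 of the 9 cohesin genes had at least 1.5-fold more FPKM than in the controls, and 0 had at least 1.5-fold less. Among 6547 genes kept (both group values averaging 1 FPKM or more), 3.89% were at least 1.5-fold higher and 1.56% at least 1.5-fold lower. The 5 genes were 3 of the 4 ring subunits and 2 of the 3 regulators, and the loader had none. The median log2 ratio of the 9 genes was 0.67, against 0.08 over all genes kept. In bulk cultures with no synchronisation described, more transcript per cell and a larger share of cells in the phase that transcribes a gene cannot be told apart, and the drug and the slower growth cannot either. At a threshold of 25% above the controls 6 of the 9 were higher (16.3% of all genes), and at 2-fold 0 were (0.901% of all genes).

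With Dox, 4 of the 9 genes were at least 1.5-fold higher than in the controls, namely SMC1, MCD1, PDS5 and ECO1, and 0 were at least 1.5-fold lower. SMC3 lay just under that fold at a log2 ratio of 0.57, and the count was 5 when ratios were centred on the median of all genes. Of the 6536 genes kept, 1.94% were at least 1.5-fold higher and 3.08% at least 1.5-fold lower. The median log2 ratio of the 9 genes was 0.57, against -0.03 over all genes. At 25% above the controls 7 of the 9 were higher (8.43% of all genes), and at 2-fold 0 were (0.551% of all genes).

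With 4-ED, SMC3 alone reached 1.5-fold, with a log2 ratio of 0.59, and SMC1 lay just under that fold at 0.58. That count was 0 when 1 FPKM was added to both values or the control was averaged over the 3 tables and 2 when ratios were centred on the median of all genes. Of the 6559 genes kept, 5.4% were at least 1.5-fold higher and 2.3% at least 1.5-fold lower, a group in which 0 of the 9 fell. The median log2 ratio of the 9 genes was 0.36, against -0.01 over all genes. At 25% above the controls 6 of the 9 were higher (12.9% of all genes), and at 2-fold 0 were (1.8% of all genes).

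**Figure D3:**
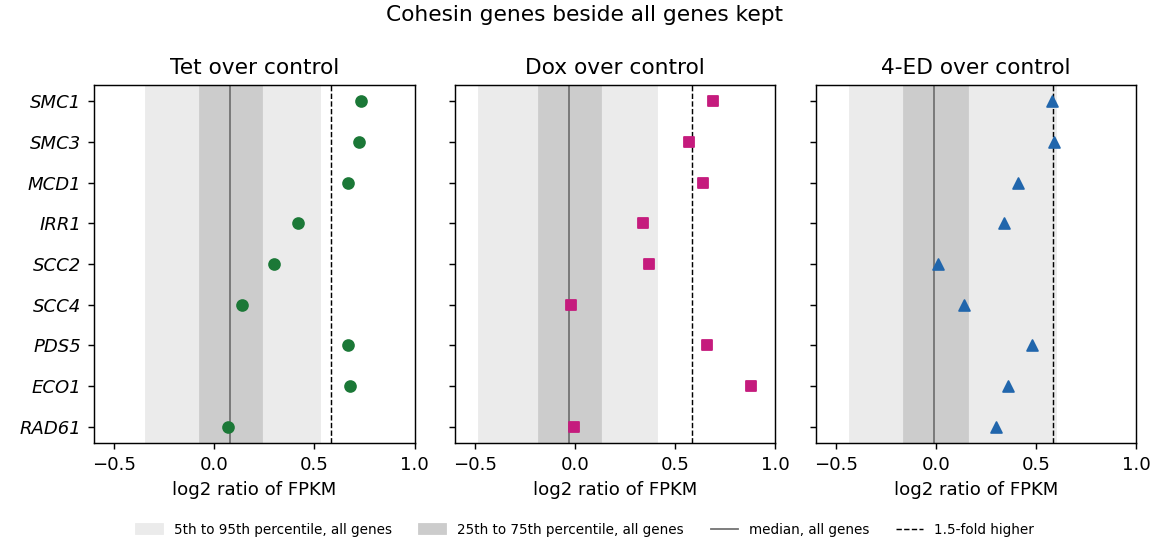
Log2 ratio of treatment to control FPKM (x axis) of the 9 cohesin genes (y axis, points) with Tet, Dox and 4-ED, beside the spread of all genes kept in that comparison (grey bands) and the 1.5-fold line (dashed). With Tet and Dox, 5 and 4 points lie right of the dashed line, and SCC4 and RAD61 lie within the band of the middle genes.

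Among the ring subunits, SMC1 (chromosome VI, 119429 to 123106 on R64, plus strand) encodes an ATPase arm of the ring. It had 15.2 FPKM in the controls of the Dox table and 24.6 FPKM with Dox, a log2 ratio of 0.69. With Tet it had 24.8 FPKM against 15.0, and its log2 ratio of 0.73 was the highest of the 9 genes with that drug. With 4-ED it had 22.2 FPKM against 14.9 in the controls. All 3 drug groups lay above the controls, and 2.14% of genes with Tet had a ratio at least as high.

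SMC3 (chromosome X, 299157 to 302849, minus strand) encodes the other arm, the target of Eco1. Tet cultures had 11.7 FPKM against 7.14 in the controls, Dox cultures 10.8 against 7.26 and 4-ED cultures 10.6 against 7.08. The log2 ratios were 0.72, 0.57 and 0.59, so that the SMC1 level was 2.1 times that of SMC3 in the controls and between 2.09 and 2.28 times with a drug. Their ratio to each other thus differed little between the groups.

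MCD1 (chromosome IV, 444683 to 446383, plus strand) encodes the kleisin, which separase cleaves at anaphase. Its level was 9.65 FPKM in the controls and 15.3 FPKM with Tet, and 9.80 against 15.3 FPKM with Dox. The log2 ratios were 0.67 with Tet and 0.64 with Dox, and 0.41 with 4-ED, at 12.7 FPKM. The kleisin gene was near SMC1 and SMC3 with Tet and Dox and below both with 4-ED.

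IRR1 (chromosome IX, 304477 to 307929, minus strand) encodes the subunit that binds Mcd1, called Scc3 in other nomenclature. It had the lowest ratios of the ring genes, although 2 full MCB motifs lie before it. With Tet the level was 13.3 FPKM against 9.995, and the log2 ratio 0.42. It was 0.34 with both Dox and 4-ED, at 12.8 and 12.5 FPKM. IRR1 was below 1.5-fold with every drug, and 9.18% of all genes with Tet had a ratio at least as high.

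Of the 2 loader genes, SCC4 was near the middle of the genome with Dox, and SCC2 lay below all 4 ring genes with Tet and 4-ED but above IRR1 with Dox. SCC2 (chromosome IV, 821295 to 825776, plus strand), the larger loader subunit, had 4.30 FPKM with Tet against 3.51 in the controls, and 4.60 with Dox against 3.56. Its log2 ratios were 0.30 and 0.37. With 4-ED it had 3.51 FPKM against 3.47 in the controls, a log2 ratio of 0.01. SCC2 thus lay above its controls with Tet and Dox and at the control level with 4-ED, and its levels were the lowest of the 9.

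SCC4 (chromosome V, 462968 to 464842, minus strand), which supports loading at centromeres, had 41.1 FPKM in the controls and 45.2 with Tet, and 41.7 in the controls and 41.2 with Dox. With 4-ED it had 44.9 FPKM. The log2 ratios lay between -0.02 and 0.14. With Dox 48.6% of all genes had a ratio at least as high, so that SCC4 was near the middle of the genome.

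Among the regulators, PDS5 (chromosome XIII, 416196 to 420029, minus strand), which keeps cohesion in place, followed the SMC genes. Its level was 15.1 FPKM with Tet (9.46 in the controls), 15.2 with Dox (9.61) and 13.1 with 4-ED (9.38). The log2 ratios were 0.67, 0.66 and 0.48. All 3 drug values lay above the controls, with 4-ED closest to them.

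ECO1 (chromosome VI, 207452 to 208297, plus strand), the Smc3 acetyltransferase, had the highest ratio of any cohesin gene in any comparison. Its level was 12.98 FPKM in the controls and 23.8 FPKM with Dox, a log2 ratio of 0.88 and a fold of 1.84. Only 0.673% of all genes had a ratio at least as high with Dox. With Tet the level was 20.4 FPKM against 12.8 in the controls, a log2 ratio of 0.68, and with 4-ED it was 16.2 FPKM, a log2 ratio of 0.36. The 3 drugs were more spread out for ECO1 than for the ring genes.

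RAD61 (chromosome IV, 474046 to 475989, plus strand), whose protein releases cohesin from DNA, was highest with 4-ED, with which ECO1 was lowest. It had 18.7 FPKM in the controls and 19.6 FPKM with Tet, and 19.0 and 18.9 FPKM with Dox. With 4-ED it had 22.8 FPKM against 18.6, a log2 ratio of 0.30. RAD61 was thus near its control level with Tet and Dox, at log2 ratios of 0.07 and -0.0043. The loader gene SCC4 was also near its controls, at 0.14 and -0.02. With 4-ED the ratio of RAD61 lay just under those of IRR1 at 0.34 and ECO1 at 0.36. After centring on the median of all genes, RAD61 was at -0.0050 with Tet and 0.02 with Dox, the reverse order of these drugs.

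The 9 genes were grouped by the upstream motif, and the ranges of the groups overlapped with Dox but not with Tet or 4-ED. With Tet, the 6 genes with ACGCGT had log2 ratios from 0.42 to 0.73 and the 3 without from 0.07 to 0.30. With 4-ED the ranges were 0.34 to 0.59 and 0.01 to 0.30, without overlap, though IRR1 at 0.34 and RAD61 at 0.30 lay close together. With Dox they were 0.34 to 0.88 and -0.02 to 0.37, and SCC2 at 0.37 lay above IRR1 at 0.34. The split was made with the ratios known and is given without a test.

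The same motif was set against the ratios of the other nuclear protein-coding genes. With Tet, the 200 other genes with ACGCGT in the 300 bases had a median log2 ratio of 0.22 and 14% of them were at least 1.5-fold higher, against 0.07 and 2.04% for the 5637 without. With Dox the medians were 0.18 and -0.03, and 10% against 0.905% were at least 1.5-fold higher. With 4-ED the medians were 0.08 and -0.03, and the shares were 6% and 2.59%. The 21 other genes with the motif 2 or more times, the class of IRR1, had medians of 0.50, 0.44 and 0.31 for Tet, Dox and 4-ED, and IRR1 lay below the first 2 of these medians. The 5 cohesin genes with a single motif lay above the 75th percentile of the other genes with a single motif in all 3 comparisons.

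**Figure D4:**
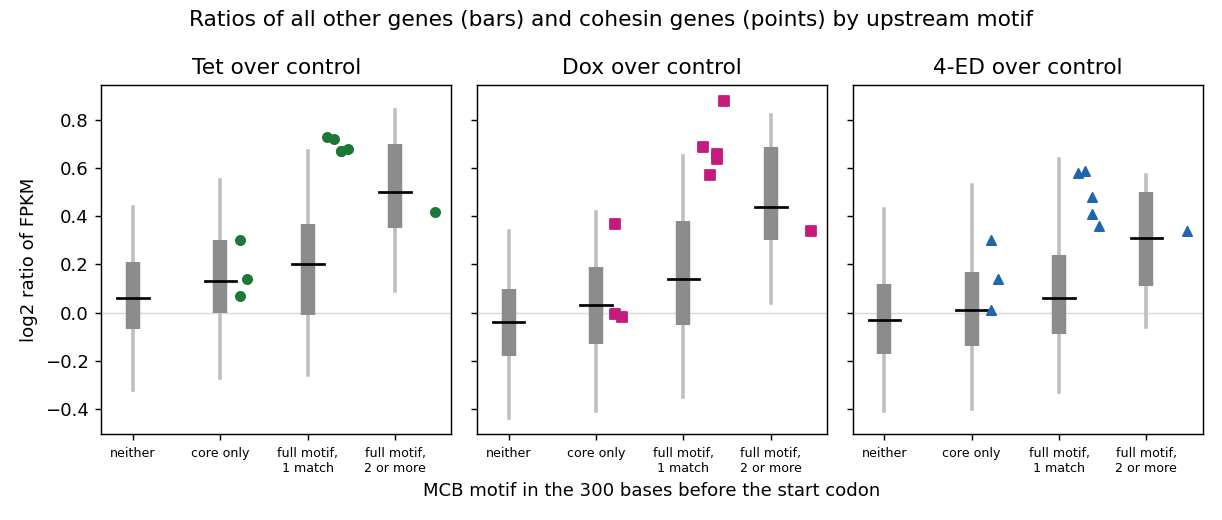
Log2 ratio of treatment to control FPKM (y axis) by the MCB motif in the 300 bases before the start codon (x axis). Black lines are medians, thick bars the 25th to 75th and thin bars the 5th to 95th percentile of all other genes, and points are the cohesin genes, of which the 5 with 1 full motif lie above the thick bar with every drug.

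Length and level were compared with the ratios, since most cohesin genes are long and weakly expressed. Among genes of at least 3000 bp, which include SMC1, SMC3, IRR1, SCC2 and PDS5, median log2 ratios for Tet, Dox and 4-ED were 0.08, 0.06 and -0.03, and 4.78%, 2.87% and 4.12% were at least 1.5-fold higher. Among genes whose control level lay within the range of the 9, the medians were 0.06, 0.02 and -0.04, and 4.86%, 2.7% and 4.59% were at least 1.5-fold higher. Over all genes kept the medians were 0.08, -0.03 and -0.01, and 3.89%, 1.94% and 5.4% were at least 1.5-fold higher. The medians of the cohesin genes were 0.67, 0.57 and 0.36. The part of length and level in the cohesin ratios was not tested.

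The 3 compounds are related and were given at the same dose. 4-ED is the epimer of Dox at the carbon that carries the dimethylamino group, and Dox differs from Tet in the place of a hydroxyl group. For each of the 3 pairs, the log2 ratio to control of one compound was subtracted from that of the other, which gives 27 differences over the 9 genes, from pooled values and therefore without an interval or a test. Dox and 4-ED differed by less than 1.5-fold for all 9 genes, as did the other pairs. Differences of at least 1.5-fold were uncommon among all genes too. Their shares were 6.17% between Dox and 4-ED, 3.08% between Dox and Tet and 4.17% between 4-ED and Tet.

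For the epimers, the largest difference was in ECO1, at 0.52 higher on the log2 scale with Dox than with 4-ED, and 2.53% of all genes had a difference at least as high. SCC2 followed with 0.36, MCD1 with 0.23 and PDS5 with 0.18. RAD61 was lower with Dox than with 4-ED, with a difference of -0.30. For IRR1 and SMC3 the log2 differences were 0.00 and -0.01. The median difference of the 9 genes was 0.12, against -0.03 over all genes.

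Dox and Tet lay closer together. ECO1 was 0.20 higher with Dox on the log2 scale and SCC4 0.16 lower, with a difference of -0.16, and SMC1, MCD1 and PDS5 had differences of -0.03, -0.02 and -0.02. For ECO1, 4.69% of all genes had a difference at least as high, and for SCC4 38.2% had one at least as low. The median difference of the 9 was -0.03, and it was 0.08 after centring on all genes, whose own median difference was -0.11. Between 4-ED and Tet, ECO1 had a difference of -0.32, SCC2 of -0.28 and MCD1 of -0.26, with RAD61 at 0.23. The median difference of the 9 was -0.15, against -0.08 over all genes.

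Lists of other cohesion, SMC and cell cycle genes were described in the same way, each against the same controls. These lists were chosen with earlier results of these data known. Among the 10 genes that link cohesion to the replication fork, MRC1, a replication checkpoint mediator, and POL30, which encodes the sliding clamp PCNA, were at least 1.5-fold higher with Tet and with Dox. POL30 went from 26.9 to 47.0 FPKM with Dox and MRC1 from 8.95 to 13.8 FPKM. The list's median log2 ratios were 0.37, 0.32 and 0.25 for the 3 drugs in that order, the lowest genes being CTF8 at 0.09, DCC1 at 0.01 and TOF1 at -0.06, and 6 of its 10 genes held ACGCGT. None of these 10 genes was 1.5-fold lower, and with 4-ED none was 1.5-fold higher.

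The 5 genes for the removal and protection of cohesin were 1.5-fold higher or lower with no drug. PDS1, the securin that holds back separase, had the highest ratio with Tet at 0.46, and HOS1, which deacetylates Smc3, the lowest at -0.02. SGO1, the shugoshin that protects cohesion, was highest with Dox and 4-ED at 0.39 and 0.09. The separase gene ESP1 had ratios of 0.14, 0.12 and -0.21, the last being the lowest of the list. The medians of the list were 0.33, 0.19 and -0.05.

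The other SMC complexes were also described. Condensin, which compacts mitotic chromosomes, had medians of 0.42, 0.37 and 0.09 with Tet, Dox and 4-ED, and 0 of its 5 genes reached 1.5-fold. SMC2 was highest of the 5 at 0.56, 0.55 and 0.33, and it was the gene of the 5 with ACGCGT. YCS4 was lowest at 0.10, 0.06 and -0.10. In the Smc5/6 complex, a DNA repair complex of the same family, SMC6 was at least 1.5-fold higher with Tet and Dox, at ratios of 0.67, 0.62 and 0.47, and KRE29 was lowest at -0.35, -0.32 and -0.31. SMC6 and NSE4 were the 2 of its 8 genes with the motif, and the medians of the complex were 0.13, 0.14 and 0.01.

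The list nearest to the cohesin genes was that of 17 late-G1 replication genes, of which 10 held ACGCGT. Its medians in log2 were 0.55, 0.44 and 0.34 for Tet, Dox and 4-ED, and 6, 6 and 0 of the 17 were at least 1.5-fold higher. With Tet these were POL1, RNR1, CDC45, RAD27, CDC21 and TOS4, and with Dox POL2 took the place of RAD27. TOS4, a forkhead-domain protein, was highest with Tet and Dox, from 4.69 to 9.70 FPKM with Tet, and PRI1, a primase subunit, was lowest at 0.16, -0.04 and -0.01. CDC21, the thymidylate synthase and highest with 4-ED at 0.56, went from 18.3 to 32.8 FPKM with Tet.

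Lists for other phases of the cell cycle had other values. The 9 G2/M genes had medians of 0.34, 0.11 and -0.09, and 0 of them reached 1.5-fold. ALK1 was lowest with Tet and Dox (0.19 and -0.05), and the highest were KIN3 (0.51 and 0.18 with Tet and 4-ED) and BUD4 (0.31 with Dox). The 8 core histone genes, which are transcribed in S phase and 0 of which held the motif, had medians of 0.10, -0.09 and 0.09, between HHT1 at -0.07 and HTB2 at 0.25 with Tet, HTA1 at -0.26 and HTB2 at 0.08 with Dox, and HTB2 at -0.00 and HTA2 at 0.32 with 4-ED. The 9 M/G1 genes had medians of -0.37, -0.37 and -0.42, and 2, 4 and 2 of them were at least 1.5-fold lower. SCW11, a cell wall glucanase of daughter cells, was among them with each drug, from 86.0 to 48.8 FPKM with Dox, and DSE2, which acts in daughter cell separation, with Tet and Dox. CTS1, a chitinase, joined them with Dox at -0.79 and EGT2 with Dox and 4-ED at -0.69 and -0.74, while CDC6, the replication licensing factor, was highest at 0.38, 0.40 and 0.13. The part of these lists in the cohesin ratios was not tested.

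**Figure D5:**
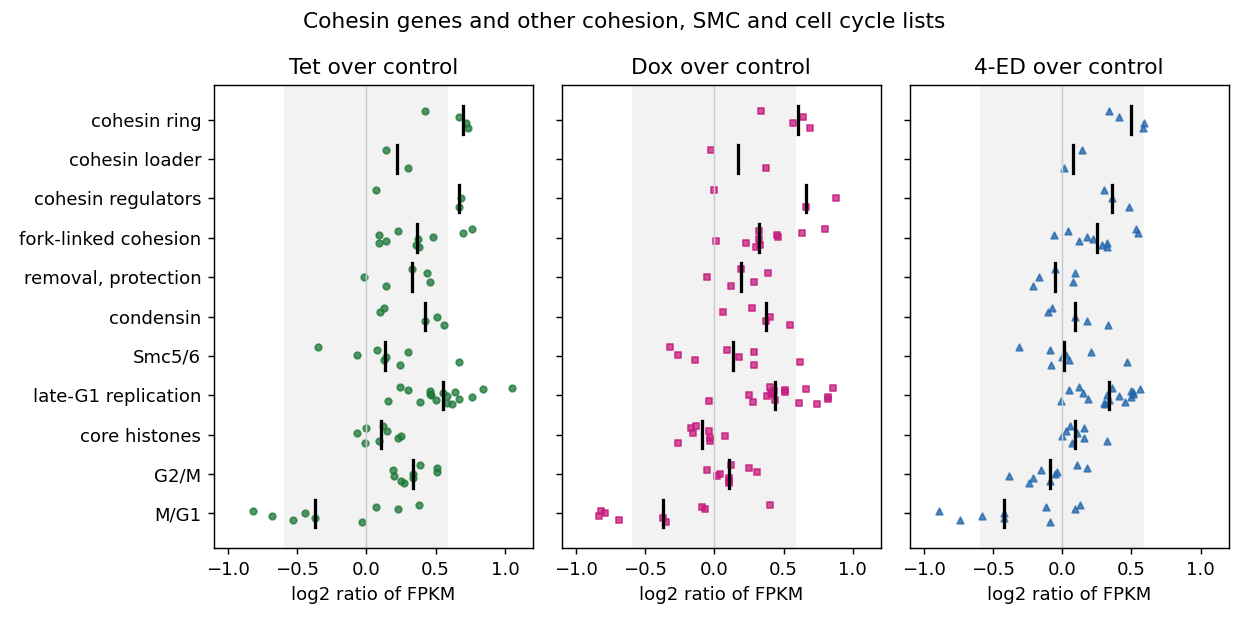
Log2 ratio of treatment to control FPKM (x axis) of each gene (points) in 11 lists (y axis), with the median of each list as a black line and the range under 1.5-fold shaded. The cohesin ring, the regulators and the late-G1 replication genes have the highest medians with Tet, and the M/G1 genes the lowest at -0.37.

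The genes with the pattern most like that of the cohesin genes were sought by the Euclidean distance over the 3 log2 ratios, among 5826 other genes that averaged 10 FPKM or more. That floor lies above the levels of SCC2, and it left out weakly expressed genes such as CDC45 and TOS4 of the late-G1 list. The 3 ratios share their controls. Nearest to the median of the 9 genes (0.67, 0.57 and 0.36 with Tet, Dox and 4-ED) were SNZ3 at a distance of 0.056, ERG3 at 0.063, PAL1 at 0.064, CLN1 at 0.079 and MSA2 at 0.081. SNZ3 acts in vitamin B6 metabolism, ERG3 encodes a sterol desaturase and CLN1 a G1 cyclin. Nearest to ECO1 were NRG2, POL30, KCC4, RMI1 and RLF2, at larger distances of 0.166 to 0.258.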

How the data were processed

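The 12 RNA-seq libraries were assigned to 4 groups by the treatment given for each. The authors mapped reads with Bowtie2 to the Ensembl R64-1-1 genome and ran Cuffdiff for each treatment against the controls, and the deposited FPKM were used here, each a single value for a group of 3 libraries, scaled within each table. Tool versions are not given in the sources used here. The tables also hold the authors' fold changes, test statistics, p-values and q-values, which were not used. A single row of 7080 that names no gene was left out.

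Log2 ratios (treated over control FPKM, no pseudocount) were taken for genes whose group values averaged 1 FPKM or more and were above 0, and compounds were compared by the difference of these ratios. The threshold of 1.5-fold is a description of size. No test was run, since each group has a single pooled FPKM and the authors' test columns were not used. Positions were compared with the RefSeq annotation of R64: 5999 loci matched a locus tag, and start and end were equal in both sources for the 9 members. Of 5939 genes whose upstream sequence was read, 5935 began with a start codon and ended with a stop codon in that genome. Names come from RefSeq for the 4 members that the tables list by identifier alone.

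All 9 members were named, and from each other list the genes past 1.5-fold and those with the highest or lowest ratio, except that few genes are named from the MAT, meiosis and marker lists and that 1 result of the G2/M list is not reported here. Members and lists (cohesin by role, fork-linked cohesion, removal and protection, condensin, Smc5/6, late-G1, G2/M, M/G1, histones, MATa, MATalpha, meiosis and strain markers) were chosen with earlier results of these data known. The ratio and motif steps were tested on simulated data. Python 3.11.15, NumPy 2.4.6, pandas 2.3.3 and BLAST+ 2.17.0 were used.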

Additional observations from a re-analysis of the deposited data

How the results depend on the processing

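No paired analysis was possible because the tables hold 1 pooled value per group, and for the same reason no replicate could be left out and the spread between cultures is unknown. A log2 value was taken as moved when it differed by 0.1 or more. Over the 81 alternative log2 ratios of single cohesin genes (1 FPKM added to both values, centring on all genes, control averaged over the 3 tables), 0 moved, and the largest difference was 0.08. Centring shifts all genes of a comparison by the same amount, at most 0.08, so it could not move any gene. The averaged control uses the same 3 control libraries and left almost no room for a move. Only the added 1 FPKM could have moved a gene. Counts of cohesin genes depended on the threshold. At 2-fold 0 genes were higher with Tet, 0 with Dox and 0 with 4-ED, and at 25% above the controls 7 were higher with Dox and 6 with 4-ED. The count of 1 gene with 4-ED became 0 with 1 FPKM added, 0 with the averaged control and 2 after centring. The count of 4 genes with Dox became 5 after centring, equal to the 5 with Tet. The median difference between Dox and Tet was 0.08 after centring and 0.08 from the treatment values of the separate tables after centring, because the median over all genes, -0.11, was removed, and the 18 differences of single genes that moved were all in that pair. In checks added after the data were seen, 4 of the 9 genes held ACGCGT within 150 bases and 6 within 500 bases, against 1.65% and 5.44% of all genes, and centring on genes of like length left all 3 medians within 0.1.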
